A study of Mus musculus with 10 samples.

Results

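The transcripts described here encode the machinery that transcribes genes: subunits of RNA polymerases I, II and III, the general transcription factors that place them at promoters, the TATA-binding protein Tbp with its associated factors (TAFs), the subunits of Mediator and a group of elongation factors. A gene was taken when a probe set of the array named it alone and its symbol was of the Polr1 to Polr3, Gtf2, Gtf3, numbered Taf, numbered Med or numbered Supt kind, or was Tbp, Ell or Ell2. This rule used names only and no measured value, but it was set with earlier results of these data known. It gave 91 of the 12394 genes that the array names, and each was represented by the probe set with the highest mean over the 10 arrays. Of these, 87 reached a mean intensity of at least 50 and were tested, out of 6792 genes that reached it. Polr3d, Taf7, Taf7l and Gtf2a1l did not reach it and are named only. Another 6 probe sets matched Supt4a, Taf9, Polr2l or Polr2k but name a second gene as well, and were left out.

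RNA came from 32Dcl3 cells, a single non-leukemic mouse myeloblast line that needs interleukin 3 (IL-3) to grow and survive, and the study asked whether IL-3 slows the loss of individual mRNAs. IL-3 was washed out and actinomycin D, which stops new transcription, was given, so that washing and block were shared by all samples at 2 h and 4 h. After the culture had been divided, high IL-3 (1 ng/ml, 1000 pg/ml) or low IL-3 (0.01 ng/ml, 10 pg/ml) was added and cells were collected at 2 h and 4 h, with 1 sample at 0 h for both arms. There were 2 experiments, hence 2 arrays in each of 5 groups. The sample titles place the 0 h sample after actinomycin D, whereas the sample descriptions place it before, and the values do not settle which holds.

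RNA polymerase I makes the large ribosomal RNA, RNA polymerase II makes mRNA, and RNA polymerase III makes tRNA and the small ribosomal RNA. At an mRNA promoter, TFIID (Tbp and the TAFs) and TFIIB bind first, TFIIF brings the polymerase, and TFIIE and TFIIH open the DNA, while Mediator carries signals from activators to the polymerase. Spt5, Spt6, the histone chaperone FACT and the ELL proteins then help the polymerase along the gene.

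Median intensity ranged from 48.8 to 70.6 over the 10 arrays, and 11280 to 12155 probe sets per array were at 50 or more. Of 9 myeloblast markers, 7 had a median over the arrays of at least 50, among them Mpo, Prtn3 and Ctsg, whereas Elane and Kit had not. None of the lymphoid (3 measured) and erythroid (3 measured) markers had, but 3 of 5 macrophage markers had (Adgre1, Csf1r and Cd68). In a whole-culture sample, fewer cells and less RNA per cell cannot be told apart. The experiment was a block in the fit, so the difference in level between the 2 cultures did not enter the p-values. Each p-value rested on how closely the differences between groups repeated in these 2 experiments. This was judged from the gene itself and from other probe sets of like intensity, whose variance limma shares. The p-values do not cover further cultures.

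At 4 h after cytokine addition, about as many of these transcripts were below their 0 h level under high as under low IL-3, and few were above it. Under high IL-3, 43 of the 87 members fell (49.4%, against 40.6% of all genes) and 2 rose (2.3%, against 9.11%). Under low IL-3, 46 fell (52.9%, against 43.6%) and 3 rose (3.45%, against 13.7%). At both doses 39 members fell, but the arms share the 0 h arrays. The share of all genes that fell at both doses was not counted. These calls are those of limma on log2(intensity + 16) with a Benjamini-Hochberg adjusted p below 0.05, a scale that understates the change of dim transcripts. The median member changed by -0.35 log2 units under high IL-3 and by -0.36 under low IL-3, against -0.16 and -0.21 over all genes, and 56 and 58 members were below those medians of all genes. The spread of the members (SD 0.89 under high and 0.88 under low IL-3) was close to that of all genes (0.82 and 0.86). At 2 h, 28 members had already fallen under high IL-3 (32.2%, against 27.6%) and 32 under low IL-3 (36.8%, against 27.5%). One member had risen at 2 h in each arm, Taf10 under high IL-3 (3.05% of all genes) and Med14 under low IL-3 (1.47% of all genes).

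The level against 0 h depended on how the arrays were scaled. With arrays set to a common 75th percentile, the median of all genes at 4 h moved to 0.25 under high IL-3 and 0.21 under low IL-3, and with quantile normalization to 0.11 and 0.09. The members then split into 27 lower and 31 higher under high IL-3 and 33 lower and 26 higher under low IL-3 by the percentile, and into 28 and 22 under high IL-3 and 33 and 19 under low IL-3 by quantiles. The shares of all genes that were lower and higher became 25.8% and 46.6% under high IL-3 and 28.4% and 45.1% under low IL-3 by the percentile, and 28.3% and 37.0% under high IL-3 and 31.2% and 37.1% under low IL-3 by quantiles. The number of members below the median of all genes moved less, to 55 and 51 under high IL-3 and to 58 and 53 under low IL-3. Of the members that fell, 4 of 43 under high IL-3 (Polr2i, Gtf2e2, Ell2 and Supt16) and 8 of 46 under low IL-3 (Polr2i, Polr3c, Gtf2f1, Gtf3c2, Supt20, Med28, Supt16 and Supt5) came out above 0 in at least 1 of the 3 scalings tried (75th percentile, quantile and Gapdh). None of the rises came out below 0. Each of these scalings moved the median of all genes upward, so that this was no test of the rises. Changes from 0 h are therefore also given relative to the median of all genes.

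**Figure D1:**
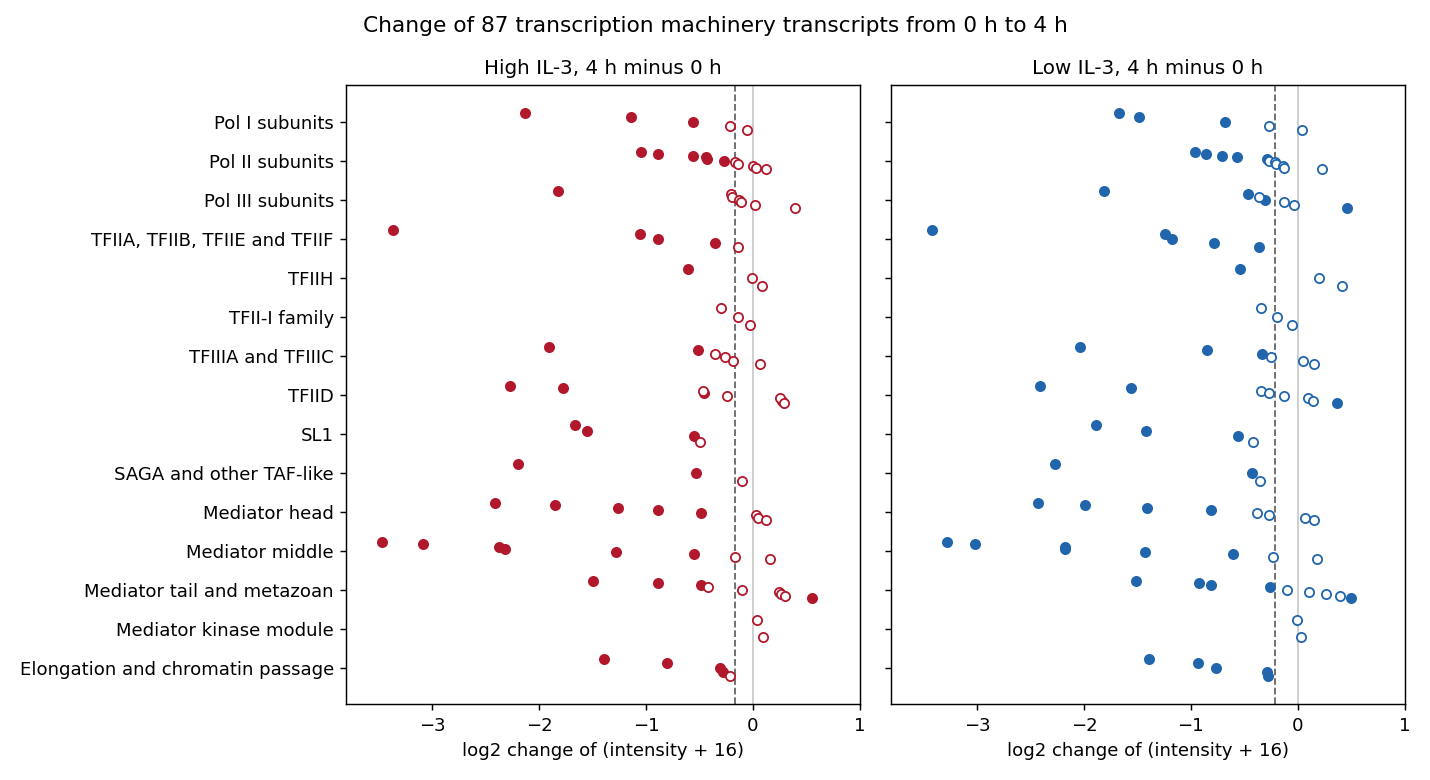
Log2 change of (intensity + 16) at 4 h against 0 h for the 87 tested members, 1 point per gene, by group of factors, under high IL-3 (left panel) and low IL-3 (right panel); filled points had a limma adjusted p below 0.05 and the dashed line is the median of all 6792 genes (-0.16 under high IL-3, -0.21 under low IL-3). Under high IL-3 each polymerase and most factor groups hold 1 or more members that fell by over 1 log2 unit, and the Mediator middle module holds 5 of them at each dose, whereas under low IL-3 no RNA polymerase II subunit lies below -1.

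Of the 23 polymerase subunit genes, 10 fell under high IL-3 (43.5%, against 40.6% of all genes) and 11 fell under low IL-3 (47.8%, against 43.6%). These shares were near those of all genes. By the probe set used, 1, Polr3g, rose under low IL-3. Polr3k did not pass by its brightest probe set (-0.12 under high and -0.13 under low IL-3). Another of its probe sets passed as a rise in both arms (0.42 and 0.54), as did a further one (0.33 and 0.44). Its remaining tested probe set had 0.01 and 0.03. Polr2a encodes the largest subunit of RNA polymerase II, which holds the catalytic site. Its intensity in experiments 1 and 2 was 822 and 583 at 0 h, 557 and 422 at 2 h and 413 and 328 at 4 h under high IL-3, and 559 and 427 at 2 h and 426.5 and 330.1 at 4 h under low IL-3. The doses overlapped at both times and both 4 h groups lay below 0 h. The log2 change to 4 h was -0.88 under high IL-3 (SE 0.12, limma adjusted p = 2.1e-05) and -0.86 under low IL-3 (SE 0.12, limma adjusted p = 2.4e-05), or -0.72 and -0.64 relative to all genes. A second, dimmer Polr2a probe set changed by -0.18 and 0.04 without passing the test.

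Polr2b, the other large subunit, was at 47.8% ± 0.691 of its 0 h intensity after 4 h under high IL-3 and at 60.8% ± 1.28 under low IL-3 (SD, n = 2 experiments). Polr2c, Polr2h and Polr2i also fell at both doses, with Polr2i above 0 under the 75th percentile scaling (0.16 in both arms). Polr2j passed the test under high IL-3 (-0.44) and not under low IL-3 (-0.21), a difference that itself did not pass. The other subunits of this enzyme (Polr2d, Polr2e, Polr2f and Polr2g) and Polr2m, a protein that associates with the polymerase and restrains it, did not pass the test at 4 h, and their log2 changes lay between -0.16 and 0.13 under high IL-3 and between -0.27 and 0.23 under low IL-3. The 75th percentile scaling put all 5 above 0.

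RNA polymerase I and III each had a fast transcript. Polr1c encodes a subunit that both enzymes share, and its intensity in experiments 1 and 2 was 1137 and 768 at 0 h, 413 and 333 at 2 h and 238 and 169 at 4 h under high IL-3, and 600.2 and 318 at 2 h and 333 and 315 at 4 h under low IL-3. Polr1e, a subunit of polymerase I, was at 44.7% ± 11.2 of 0 h after 4 h under high IL-3 and at 30.03% ± 5.81 under low IL-3 (SD, n = 2). Polr3a, the catalytic subunit of polymerase III, was at 22.8% ± 2.29 and 23.6% ± 5.36 by the probe set used, a log2 change of -1.82 under high and -1.81 under low IL-3. A second Polr3a probe set of almost the same brightness also fell, but with -0.63 and -0.94. Polr1a and Polr1b, the large subunits of polymerase I, did not pass the test, with log2 changes of -0.22 and -0.05 under high IL-3 and -0.27 and 0.04 under low IL-3. Polr3g, which has an alternative form in Polr3gl, had 130 and 55.1 at 0 h and 147 and 105 at 4 h under low IL-3, a rise of 0.46 log2 units (SE 0.18, limma adjusted p = 0.039) that was larger in experiment 2 (0.77) than in experiment 1 (0.15). Without the 0 h array of experiment 2 it was 0.27 (limma adjusted p = 0.35).

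Among the general factors of RNA polymerase II, the deepest fall was that of Gtf2b, which encodes TFIIB, the factor that bridges promoter-bound Tbp and the polymerase. Its intensity in experiments 1 and 2 was 1623 and 1132 at 0 h, 558 and 247 at 2 h and 137 and 99.8 at 4 h under high IL-3, and 565 and 222 at 2 h and 124 and 101 at 4 h under low IL-3. Every 2 h array was below every 0 h array and above every 4 h array, and the doses overlapped. The log2 change to 4 h was -3.37 under high IL-3 (limma adjusted p = 3.9e-09) and -3.42 under low IL-3 (limma adjusted p = 3.0e-09), each with an SE of 0.21, or -3.20 and -3.21 relative to all genes. Its half-life, from the slope of the natural log over 2 h and 4 h, was 1.15 h and 1.09 h under high IL-3 and 1.12 h and 1.07 h under low IL-3 for experiments 1 and 2.

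The other members of this set fell less. Gtf2a1 (TFIIA), Gtf2e2 (the small subunit of TFIIE) and Gtf2f2 (a subunit of TFIIF) fell at both doses, with log2 changes of -1.05, -0.35 and -0.89 under high IL-3 and -1.24, -0.78 and -1.18 under low IL-3, although Gtf2e2 under high IL-3 came out above 0 under another scaling. Gtf2f1, the partner of Gtf2f2, had -0.14 under high IL-3, short of the threshold, and -0.36 under low IL-3, where it passed the test but came out above 0 under another scaling. Of the TFIIH genes, Gtf2h4 fell at both doses (-0.61 under high and -0.54 under low IL-3), whereas Gtf2h1 and Gtf2h3 did not pass the test. None of the 3 TFII-I family genes passed it with the probe set used (Gtf2i, Gtf2ird1 and Gtf2ird2).

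The factors that serve polymerase III also differed among themselves. Gtf3c4, a subunit of TFIIIC, the complex that recognises tRNA genes, was at 21.98% ± 0.374 of 0 h after 4 h under high IL-3 and at 19.9% ± 3.80 under low IL-3 (SD, n = 2). Gtf3c1, the largest TFIIIC subunit, fell by 0.51 log2 units under high IL-3 and by 0.84 under low IL-3. Gtf3a, the zinc finger factor of the 5S ribosomal RNA gene, had log2 changes of 0.07 and 0.05 and did not pass the test.

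Within TFIID, Tbp stood far from most of the TAFs by the probe set used. Tbp, which binds the TATA element and takes part in initiation by all the polymerases, had intensities in experiments 1 and 2 of 330.2 and 259 at 0 h, 133 and 112 at 2 h and 51.7 and 44.3 at 4 h under high IL-3, and 92.8 and 73.0 at 2 h and 42.7 and 41.6 at 4 h under low IL-3. At 2 h both high IL-3 arrays were above both low IL-3 arrays, and at 4 h 3 of the 4 arrays were below 50 and their order was not read. The log2 change to 4 h was -2.27 under high IL-3 (SE 0.17, limma adjusted p = 1.9e-08) and -2.41 under low IL-3 (SE 0.17, limma adjusted p = 9.5e-09), or -2.11 and -2.19 relative to all genes. A second Tbp probe set was below the intensity filter. Over the alternative runs, which include the mean of both probe sets, the change lay between -2.59 and -1.17 under high IL-3 and between -2.77 and -1.21 under low IL-3.

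Taf4, a scaffold subunit of TFIID, was at 27.6% ± 9.07 of 0 h after 4 h under high IL-3 and at 32.1% ± 6.86 under low IL-3 (SD, n = 2), log2 changes of -1.77 and -1.56. Its second, dimmer probe set fell less, with -0.46 and -0.59. Taf10, which is part of both TFIID and the SAGA coactivator, was among the few members that rose. Its intensity in experiments 1 and 2 was 1935 and 2827 at 0 h, 2393 and 3147 at 2 h and 2352 and 3415 at 4 h under high IL-3, and 2116 and 3107 at 2 h and 2499 and 3645 at 4 h under low IL-3. Within each experiment every later array was above 0 h, while the experiments differed in level. The log2 change to 4 h was 0.28 under high IL-3 (SE 0.07, limma adjusted p = 0.0047) and 0.37 under low IL-3 (SE 0.07, limma adjusted p = 0.00041). Each scaling tried moved this change further up, as it did the median of all genes, and so did not test the rise. Taf11, Taf12, Taf13 and Taf8 did not pass the test in either arm, and Taf6 fell under high IL-3 (-0.46) and had -0.35 under low IL-3, short of the threshold.

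SL1 is the Tbp-containing factor of RNA polymerase I. Its subunit Taf1b was at 32.1% ± 3.22 of 0 h after 4 h under high IL-3 and 35.5% ± 1.86 under low IL-3. Taf1c was at 23.5% ± 5.98 and 17.3% ± 5.28 (SD, n = 2). All 4 h arrays of Taf1c were below 50, so that their order was not read. By the probe set used, Taf1d fell by 0.55 log2 units under high IL-3 and by 0.56 under low IL-3. Another of its probe sets also fell (-0.50 and -0.45). Its other tested probe sets did not pass, with -0.28 and -0.16 under high IL-3 and -0.16 and 0.05 under low IL-3. Taf1a did not pass the test at 4 h (-0.50 and -0.42). It had fallen at 2 h, by 0.76 under high IL-3 (limma adjusted p = 0.0096) and by 0.85 under low IL-3 (limma adjusted p = 0.0046). Taf5l, a WD repeat protein of SAGA-type complexes, had log2 changes of -2.20 under high IL-3 and -2.27 under low IL-3. Its intensity was 485 and 406 at 0 h, 99.2 and 70.8 at 4 h under high IL-3 and 74.4 and 84.7 at 4 h under low IL-3.

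**Figure D2:**
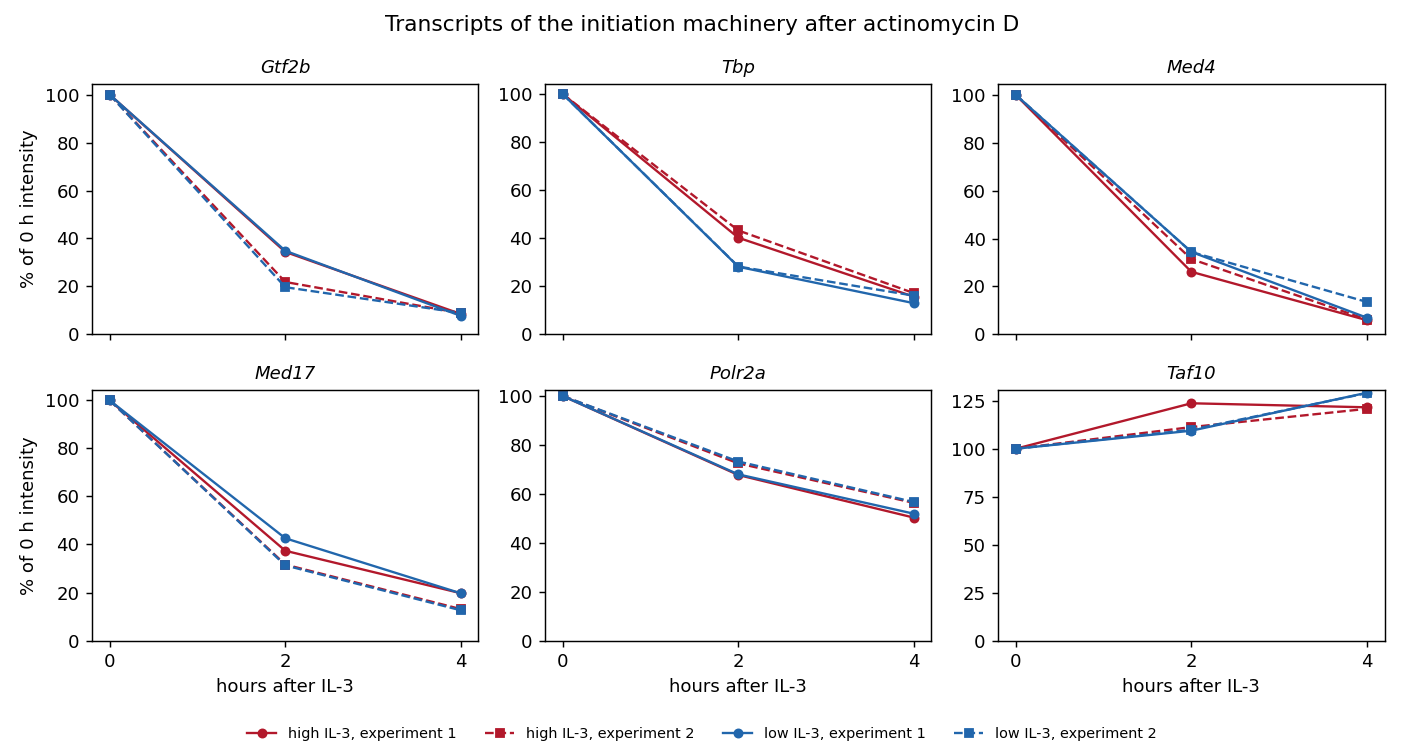
Intensity as a percent of that experiment's 0 h array (vertical axis, from 0) against hours after IL-3 (horizontal axis) for Gtf2b, Tbp, Med4, Med17, Polr2a and Taf10, with high IL-3 in red, low IL-3 in blue, experiment 1 as circles and experiment 2 as squares. At 4 h Gtf2b was at 8.63% under high IL-3 and 8.27% under low IL-3, Polr2a at 53.3% and 54.3%, and Taf10 at 121% and 129%, as means of 2 experiments.

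Mediator is built of a head and a middle module that contact the polymerase, a tail that contacts activators and a kinase module that can detach. Its 27 transcripts among the members covered a wider range than the 23 polymerase subunits, which is a description with no test. The SD of the log2 change at 4 h was 1.13 under high and 1.09 under low IL-3, against 0.61 and 0.57. Over all modules 14 fell at each dose (51.9%, against 40.6% of all genes under high IL-3 and 43.6% under low IL-3), 1 rose at each dose (3.7%, against 9.11% and 13.7%) and 12 did not pass the test.

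The middle module had the lowest median of any group of factors, -1.80 log2 units at both doses, and 6 of its 8 transcripts fell in each arm. Med4 had intensities in experiments 1 and 2 of 788 and 329 at 0 h, 206 and 103 at 2 h and 46.2 and 20.2 at 4 h under high IL-3, and 271 and 113 at 2 h and 54.4 and 44.3 at 4 h under low IL-3. At 2 h the high IL-3 value was below the low IL-3 value within each experiment, and at 4 h 3 of the 4 arrays were below 50, so that their order was not read. The log2 change to 4 h was -3.47 under high IL-3 (SE 0.21, limma adjusted p = 2.9e-09) and -3.01 under low IL-3 (SE 0.21, limma adjusted p = 9.5e-09). Med26, the subunit at which elongation factors dock, was dimmer and had 309 and 152 at 0 h, 12.6 and 13.2 at 2 h and 10.98 and 12.3 at 4 h under high IL-3, and 19.98 and 9.89 at 2 h and 12.3 and 4.63 at 4 h under low IL-3. All of its later arrays were at 8.69% of 0 h or less and below the intensity of 50 used as the filter on means, so that the order among them was not read.

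Med7 and Med31 had half-lives of 1.45 h ± 0.256 and 1.51 h ± 0.285 under high IL-3, and of 1.47 h ± 0.0466 and 1.57 h ± 0.280 under low IL-3 (SD, n = 2). Med21, which pairs with Med7 in the module, was slower at 3.20 h ± 0.202 under high IL-3 and 2.87 h ± 0.327 under low IL-3. Med1, the subunit that binds nuclear receptors, fell by 0.55 log2 units under high IL-3 (limma adjusted p = 0.0045) and by 0.60 under low IL-3 (limma adjusted p = 0.0018), but its second probe set had 0.06 and 0.20, and the mean over all 6 of its probe sets on the array, dimmer ones included, gave 0.05 and 0.12, so that its direction depends on the probe set. Med9 and Med10 did not pass the test in either arm.

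In the head module Med17, which holds the module together, fell the most by the probe set used. It had 587 and 419 at 0 h, 220 and 133 at 2 h and 116 and 54.8 at 4 h under high IL-3, and 250.0 and 131 at 2 h and 115 and 52.7 at 4 h under low IL-3. The experiments differed in level but each fell without a break, and the log2 change to 4 h was -2.41 under high IL-3 (limma adjusted p = 7.5e-09) and -2.43 under low IL-3 (limma adjusted p = 6.5e-09), each with an SE of 0.16. A second Med17 probe set was below the intensity filter. Over the alternative runs, which include the mean of both probe sets, the change lay between -2.62 and -1.11 under high IL-3 and between -2.65 and -1.28 under low IL-3. Med6 and Med8 followed with -1.85 and -1.26 under high IL-3 and -1.99 and -1.41 under low IL-3, and Med20 with -0.89 and -0.81. Med11 fell under high IL-3 (-0.49) and had -0.38 under low IL-3, short of the threshold. Med19, Med22 and Med30 did not pass the test.

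The tail and metazoan subunits had medians of -0.10 at both doses, close to those of all genes. Med23, which contacts activators that respond to growth factors, was at 31.5% ± 6.20 of 0 h after 4 h under high IL-3 and at 31.1% ± 2.82 under low IL-3 (SD, n = 2), and Med27 and Med29 fell at both doses. Med14, the backbone that joins the modules, had 70.6 and 81.6 at 0 h, 107 and 132 at 4 h under high IL-3 and 93.9 and 117 at 4 h under low IL-3. It rose under high IL-3 by 0.56 log2 units (SE 0.16, limma adjusted p = 0.012). Med25, a docking site of activators, rose under low IL-3 by 0.50 (SE 0.17, limma adjusted p = 0.019), with 216 and 170 at 0 h and 269 and 286 at 4 h. Both calls were lost without the 0 h array of experiment 2 (Med14 limma adjusted p = 0.066, Med25 limma adjusted p = 0.16). Among the members, the kinase module genes were Med12 and its paralog Med12l, and neither passed the test. They changed by 0.04 and 0.09 under high IL-3 and by 0.03 and -0.01 under low IL-3. Cdk8 and Ccnc, also of this module, lie outside the named families and are partner genes here. Cdk8 fell in both arms, with -0.99 under high IL-3 and -1.15 under low IL-3. Ccnc had 0.12 and 0.34 and did not pass the test.

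**Figure D3:**
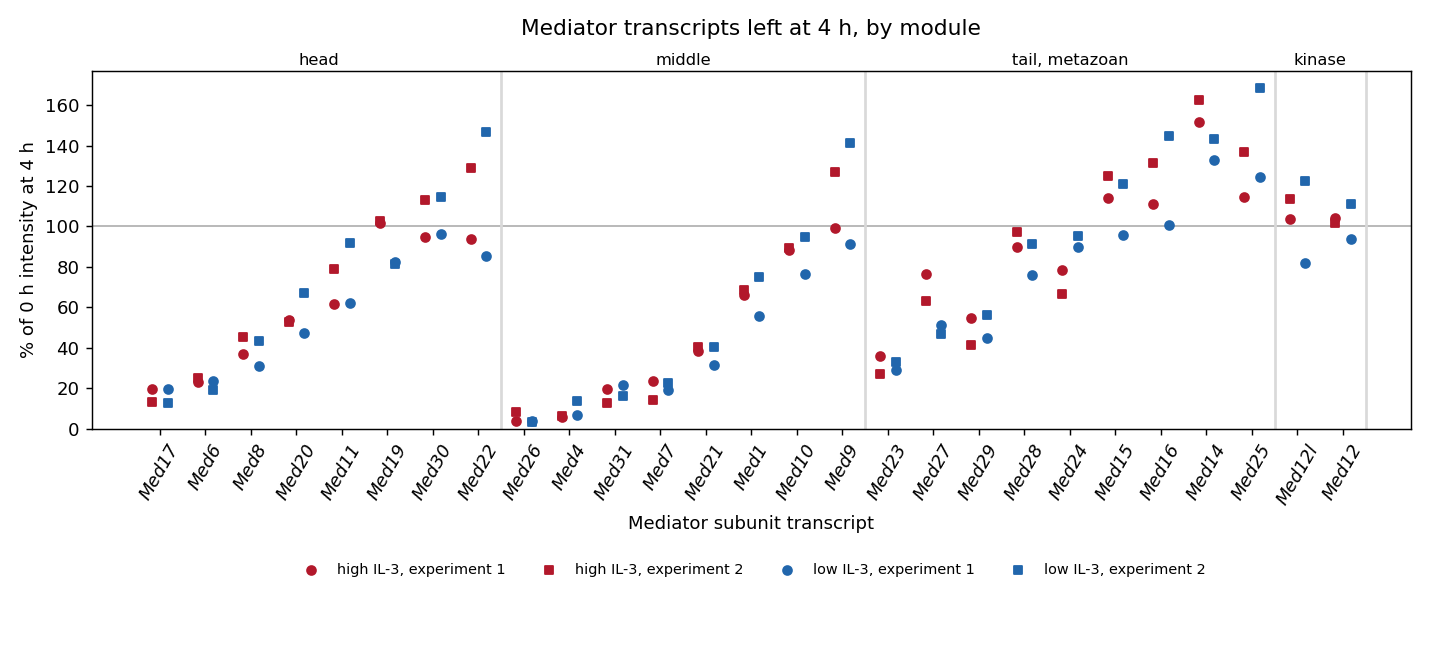
Intensity at 4 h as a percent of 0 h (vertical axis, from 0) for the 27 Mediator transcripts (horizontal axis, by module and within it by the change under low IL-3), with high IL-3 in red left of low IL-3 in blue and experiments 1 and 2 as circles and squares. The median transcript of the middle module was at 29.2% under high IL-3 and 28.2% under low IL-3, against 93.3% and 92.7% for the tail and metazoan subunits.

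Of the 5 elongation genes, 4 fell under high IL-3 and 5 fell under low IL-3, where 40.6% and 43.6% of all genes did, but Ell2 under high IL-3, Supt5 under low IL-3 and Supt16 in both came out above 0 under another scaling. Ell, a subunit of the super elongation complex that raises the speed of RNA polymerase II, had 315 and 180 at 0 h, 123.2 and 69.9 at 2 h and 129 and 49.6 at 4 h under high IL-3, and 110 and 69.1 at 2 h and 89.4 and 74.0 at 4 h under low IL-3. Most of its loss was thus seen by 2 h, and its log2 change to 4 h was -1.39 in both arms (SE 0.20, limma adjusted p = 2.5e-05 under high and 2.2e-05 under low IL-3). Supt6, a histone chaperone that travels with the polymerase, had -0.80 under high IL-3 and -0.94 under low IL-3, and Supt16, a subunit of FACT, had -0.28 and -0.29. Supt5, a subunit of the pausing and elongation factor DSIF, had -0.21 under high IL-3 (limma adjusted p = 0.12) and fell by 0.27 under low IL-3 (limma adjusted p = 0.039). With arrays scaled to the 75th percentile these became 0.22, now past the threshold as a rise (limma adjusted p = 0.045), and 0.16, and by quantiles 0.10 and 0.03.

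Between IL-3 doses far fewer members differed than over time. Averaged over 2 h and 4 h, 2 of 87 members were higher under high than under low IL-3 (2.3%, against 0.869% of all genes) and 0 were lower (against 0.0147%), and at an unadjusted p below 0.05 the limma counts were 8 and 2 (6.76% and 1.84% of all genes). The median member differed by 0.02 log2 units, high minus low, and the median gene by -0.01, with an SD of 0.15 for each. The SE of a member's difference lay between 0.05 and 0.18. At 2 h alone 0 members passed (4 higher and 1 lower unadjusted), against 0.0736% of all genes higher and 0% lower (3.93% and 2.71% unadjusted). At 4 h alone 0 passed in limma (7 higher and 4 lower unadjusted), against 0.486% and 0.0147% (6.35% and 1.74% unadjusted). The change of the dose difference between 2 h and 4 h passed for 0 members (1 and 2 unadjusted in limma) and for 0% of all genes in either direction (3.39% and 1.97% unadjusted).

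Ell2, a paralog of Ell in the super elongation complex, had intensities in experiments 1 and 2 of 1093 and 850.5 at 0 h, 1076 and 744.5 at 2 h and 886 and 684 at 4 h under high IL-3, and 805.5 and 529.8 at 2 h and 662 and 476 at 4 h under low IL-3. As a share of 0 h it was at 93.0% ± 7.70 at 2 h and 80.7% ± 0.467 at 4 h under high IL-3, and at 68.0% ± 8.05 and 58.2% ± 3.23 under low IL-3 (SD, n = 2). The shares did not overlap between the doses at either time, and high IL-3 was higher in 4 of 4 pairs. The log2 difference was 0.45 (SE 0.08, limma adjusted p = 0.016), with 0.41 in experiment 1 and 0.49 in experiment 2. The half-life was 14.03 h ± 2.64 under high IL-3 and 4.77 h ± 0.744 under low IL-3, values that reach beyond the 4 h followed. They depend on the scaling. With the 75th percentile and quantile scalings the change to 4 h was 0.12 and 0.04 under high IL-3, no fall, and -0.33 and -0.39 under low IL-3. The paralog Ell differed between doses by 0.04 (SE 0.14, limma adjusted p = 0.97).

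Polr2c encodes a subunit on which the assembly of RNA polymerase II starts. It had intensities in experiments 1 and 2 of 998.5 and 900.5 at 0 h, 842 and 823 at 2 h and 693 and 706 at 4 h under high IL-3, and 649 and 588 at 2 h and 449 and 514 at 4 h under low IL-3. At each time both high IL-3 arrays were above both low IL-3 arrays, and the groups did not overlap. The log2 difference was 0.47 (SE 0.09, limma adjusted p = 0.017), with 0.49 in experiment 1 and 0.46 in experiment 2, and the half-life was 9.87 h ± 3.06 under high IL-3 and 3.95 h ± 0.757 under low IL-3 (SD, n = 2). The half-lives depend on the scaling. With the 75th percentile and quantile scalings the change to 4 h was -0.01 and -0.07 under high IL-3 and -0.52 and -0.57 under low IL-3. The dose differences of the other RNA polymerase II members lay between -0.14 and 0.10.

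Both calls rested on few arrays and on the variance trend of the fit. Without that trend the limma adjusted p was 0.082 for Ell2 and 0.088 for Polr2c. The sign was positive under each alternative run, but the limma adjusted p of Ell2 ranged from 0.0091 to 1 and that of Polr2c from 0.0079 to 1, the highest being those of the fit without the experiment as a block. It was 0.11 for Ell2 and 0.10 for Polr2c without the 4 h high IL-3 array of experiment 2, and 0.17 for each without the 2 h low IL-3 array of that experiment.

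**Figure D4:**
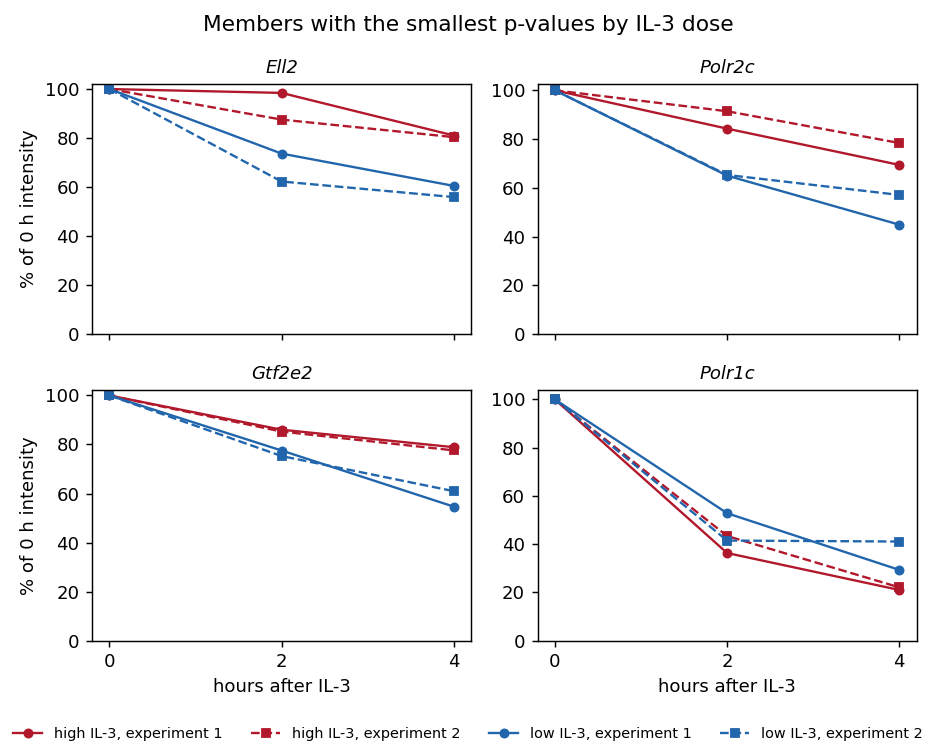
Intensity as a percent of that experiment's 0 h array (vertical axis, from 0) against hours after IL-3 (horizontal axis) for Ell2, Polr2c, Gtf2e2 and Polr1c, with high IL-3 in red, low IL-3 in blue, experiment 1 as circles and experiment 2 as squares. Ell2 at 4 h was at 80.7% under high IL-3 and 58.2% under low IL-3, and Polr1c, with the order turned round, at 21.5% and 35.2%.

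The members with the next smallest p did not pass the threshold, and their values are given as such. Gtf2e2 had 1159 and 1165 at 2 h and 1063 and 1060 at 4 h under high IL-3, and 1044 and 1029 at 2 h and 736 and 833 at 4 h under low IL-3, higher in 4 of 4 pairs (0.30 log2 units, SE 0.07, limma adjusted p = 0.086). Med27 differed by 0.40 (SE 0.11, limma adjusted p = 0.16), Polr1e by 0.38 (SE 0.11, limma adjusted p = 0.18), Supt20, a SAGA subunit, by 0.25 (SE 0.08, limma adjusted p = 0.26), Tbp by 0.31 (SE 0.12, limma adjusted p = 0.41) and Gtf2f2 by 0.23 (SE 0.09, limma adjusted p = 0.43). On the other side were Polr1c at -0.44 (SE 0.12, limma adjusted p = 0.13), whose second probe set had -0.54 (limma adjusted p = 0.065), and Med4 at -0.35 (SE 0.15, limma adjusted p = 0.51). Polr2j, Gtf3c5, Polr2b and Taf4 followed with -0.14, -0.19, -0.11 and -0.13. Polr2a, Med1 and Supt5 differed by -0.02 (SE 0.09), -0.01 (SE 0.10) and 0.06 (SE 0.07), with limma adjusted p-values of 0.98, 0.99 and 0.90.

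Counted over the 4 pairs of arrays (2 times in 2 experiments), 12 members were higher under high IL-3 in all 4 (13.8%, against 11.1% of all genes) and 4 were lower in all 4 (4.6%, against 7.44%). The area between the decay curves of the doses, after the study's definition with ratios under high IL-3 limited to 1, was positive in both experiments for 26 members (29.9%, against 21.6% of all genes) and negative in both for 32 (36.8%, against 51.4%). Without that limit it was positive in both for 33 members (37.9%, against 28.2%).

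**Figure D5:**
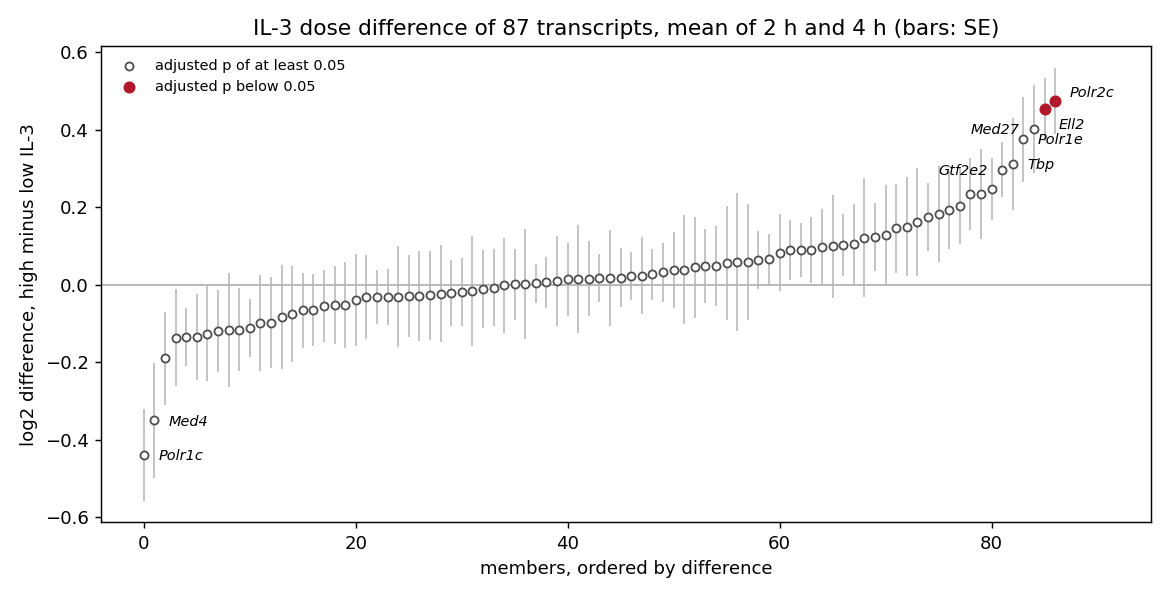
Log2 difference in (intensity + 16), high minus low IL-3, mean of 2 h and 4 h (vertical axis), for the 87 tested members in order of that difference (horizontal axis), with bars of 1 SE and filled points where the limma adjusted p was below 0.05. The differences run from -0.44 for Polr1c to 0.47 for Polr2c, and Ell2 and Polr2c are the 2 filled points.

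Half-lives under 2 h in both experiments were found for 13 members under high IL-3 (14.9%, against 7.21% of all genes) and for 12 under low IL-3 (13.8%, against 7.92%). The 12 were, by the probe set used, Polr3a, Gtf2b, Gtf3c4, Tbp, Taf1c, Taf5l, Med17, Med6, Med26, Med31, Med4 and Med7, and the 13 were these and Polr1c. They thus include TFIIB, Tbp, the catalytic subunit of polymerase III, 2 head and 4 middle subunits of Mediator, and none of the RNA polymerase II subunits. No fall in either experiment was found for 11 members under high IL-3 (12.6%, against 25.1%) and for 9 under low IL-3 (10.3%, against 26.2%). Polr2f, Polr3g, Gtf3a, Taf10, Taf12, Med14 and Med25 were in both of these lists. Half-lives inherit the scaling of the arrays and are relative values.

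More than 1 tested probe set was present for 24 members, and in 13 of these all had the same sign of change at 4 h under low IL-3. For Gtf2i, Med28 and Supt20, probe sets of the same gene were called in opposite directions under low IL-3. The Gtf2i probe sets ranged between -0.51 and 0.85, those of Med28 between -0.26 and 0.46 and those of Supt20 between -0.43 and 0.68. Near-identical copies or transcript forms that a probe set may read were not separated here.

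Partner genes outside the named families were listed in 4 groups, with earlier results of these data known, and 37 of the genes were tested. In these lists 23 fell and 3 rose at 4 h under high IL-3, and 25 fell and 2 rose under low IL-3. These are 62.2% and 8.11% under high IL-3, against 40.6% and 9.11% of all genes, and 67.6% and 5.41% under low IL-3, against 43.6% and 13.7%. Of the P-TEFb, 7SK and super elongation partners, 5 of 8 fell under high IL-3 and 7 of 8 under low IL-3, among them Cdk9, the kinase that releases paused polymerase (-2.19 and -2.41), and Aff1, a scaffold of the super elongation complex (-1.46 and -1.80). Of the NELF, PAF1 complex, TFIIS and elongin (Eloa, Elob and Eloc) genes, 7 of 13 fell and 2 rose in each arm. Cdc73 was at -1.19 and -1.23 and Ctr9 at -1.48 in both arms. Of the TFIIH and Mediator kinases and helicases, 5 of 6 fell in each arm, with Cdk7, the kinase of TFIIH, at -2.62 under high IL-3 and -2.69 under low IL-3 and its partner Ccnh at -0.79 and -1.02. The list of polymerase I and III partners also holds Dr1, Drap1 and Tbpl1, which are not particular to these enzymes. In this list 6 of 10 fell in each arm, with Snapc2 at -3.25 and -2.95 and Dr1, a repressor that binds Tbp, at -1.54 and -1.50. None of the 37 genes differed between IL-3 doses in limma after adjustment. At an unadjusted p below 0.05, 6 were higher and 1 lower, together 18.9% of the 37. Of all genes, 6.76% were higher and 1.84% lower.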

How the data were processed

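RNA of 10 samples was hybridised to Affymetrix mouse expression arrays. The intensity values deposited by the authors were normalized together with dChip at default settings, on a linear scale. The sources used here give no dChip version. Names of probe sets came from the platform's annotation (20393 name 1 gene, 691 several and 1606 none). Members came from their symbols, were sorted into groups of factors by name, and were chosen, like the partner lists, with earlier results of these data known. The platform's symbols of the chosen probe sets match NCBI RefSeq (GRCm38.p6).

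limma 3.58.1 (R 4.3.3) was fitted to log2(intensity + 16) of the 11856 probe sets with a mean of at least 50, with 5 groups, the experiment as a block and a variance trend, and p-values were adjusted over all of them. Arrays of the same number come from 1 divided culture, and their deviations from the group means correlated by 0.762 to 0.887 over 10 pairs of groups. On simulated intensities with 200 changed probe sets among 11856 for the averaged dose contrast, 31.2% of log2 changes of 0.4 and 86.4% of 0.8 were recovered. Background shares are over 6792 genes with 1 probe set each. Members may be named where their group is described. Full statistics go to members past the threshold or with the smallest p by dose, to the deepest falls and largest rises at 4 h, and to Polr2a, Tbp, Med1, Supt5, Ell and Ell2. Precision is limited by having 2 arrays per group. Percentages of 0 h are given as mean ± SD of 2 experiments.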

Additional observations from a re-analysis of the deposited data

How the results depend on the processing

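The 2 members higher under high than under low IL-3 became 1 with no filter on mean intensity, and 0 with no replicate block and with no variance trend. Leaving out 1 array gave 0 to 2. It was 1 without the 2 h high IL-3 array of experiment 1 or the 4 h low IL-3 array of experiment 2, and 0 without either 4 h high IL-3 array, the 2 h low IL-3 array of experiment 2 or the 4 h low IL-3 array of experiment 1. The count of members lower under high IL-3 was 0 under each alternative run. Without pairing by experiment (no replicate block), the members that fell at 4 h numbered 19 under high IL-3 against 43, and 22 under low IL-3 against 46, and 0 rose in either arm. Falls under high IL-3 numbered 28 at a mean intensity of at least 200 (61 members tested), 27 with 75th percentile scaling and 28 with quantile normalization, and 32 to 44 when 1 array was left out; under low IL-3 that range was 35 to 49. Rises under high IL-3 numbered 1 at a mean of at least 200, 31 and 22 under the 2 scalings, 7 with each probe set counted, and 0 to 5 when 1 array was left out (5 and 1 without the 0 h array of experiment 1 or 2, 0 without the 4 h high IL-3 array of experiment 2). Rises under low IL-3 numbered 26, 19, 9 and 1 to 6 (6 and 1 without the 0 h array of experiment 1 or 2, 1 without the 4 h low IL-3 array of experiment 2). Signs turned at 4 h for Med1 with the mean of all its probe sets (0.0481 under high and 0.1155 under low IL-3), for Supt5 with the 75th percentile and quantile scalings (0.2155 and 0.1027 under high IL-3, 0.1637 and 0.0344 under low IL-3) and for Ell2 under high IL-3 with the same scalings (0.1207 and 0.0443). Of these, Supt5 under high IL-3 passed the limma threshold as a rise with the 75th percentile scaling (adjusted p = 0.045). Between doses, 3 differences near 0 that were not called turned sign. That of Med1 was 0.0085 with Gapdh scaling, 0.0792 in experiment 1 alone and -0.0970 to 0.0805 when 1 array was left out. That of Ell was -0.2215 in experiment 2 alone and -0.1065 to 0.1829 when 1 array was left out (below 0 without either 4 h array of experiment 1), and that of Polr2a -0.0385 to 0.0022 (above 0 without the 4 h high IL-3 array of experiment 1). The cause of these changes was not tested, beyond the fewer genes of the stricter filter and the shift of all genes by the scalings. Over the alternative fits of the named genes, 864 values kept their direction and side of the threshold, 61 kept their direction but were no longer past it, and 16 turned sign. In the single experiments, which have no adjusted p, 94 values had the direction of both together and 2 did not.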
